A study of Mus musculus with 12 samples.

Results

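Neurotrophins are secreted growth factors that neurons use to keep cells alive in development and to adjust synapses in the adult. Each is made as a proneurotrophin and cut to the mature factor. Mature BDNF, from Bdnf, signals through the receptor tyrosine kinase TrkB, from Ntrk2, and the factor from Ntf3 signals mainly through TrkC, from Ntrk3. The p75 receptor, from Ngfr, binds every neurotrophin and pairs with sortilin, from Sort1, to bind the proneurotrophins, while sortilin inside the cell also sorts proBDNF toward regulated secretion. In the hippocampus, BDNF and TrkB are best known for their part in long-term potentiation at the synapses of pyramidal neurons, and Bdnf RNA is known to be carried into dendrites. Ntrk2 and Ntrk3 each give rise to full-length kinase receptors and to truncated receptors without a kinase, and truncated TrkB is known as the main form in astrocytes.

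The genes described here are Bdnf, Ntf3, Ntrk2, Ntrk3, Ngfr and Sort1, taken by name from the array features that carry a single gene symbol. Of these 6 genes, 5 had such a feature, 1 each, among 30142 genes measured, and Ntf3 is not analysed here. In GRCm38.p6, RefSeq places these protein-coding genes at chr2:109674700-109727043 (Bdnf), chr13:58806472-59133970 (Ntrk2), chr7:78179986-78581034 (Ntrk3), chr11:95568818-95587698 (Ngfr) and chr3:108283974-108361519 (Sort1). The values come from 12 arrays, 3 for each of 4 pieces of hippocampus taken by laser capture microdissection, namely a cell body layer and a dendritic layer from CA1 and from CA2. Lysates of many sections were pooled for each piece of a brain, and the RNA was amplified before labelling. All groups share the same source, 3 male Amigo2-EGFP mice on C57BL/6J, 6 to 8 weeks old and untreated apart from anaesthesia, from separate litters. The reporter follows the Amigo2 gene, which marks CA2, and the labels do not say whether it guided the capture or which arrays came from the same mouse.

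Values are log2 expression after RMA (robust multi-array average) by the authors, so a difference of 1 is a 2-fold difference. Each feature reads the gene as a whole, so full-length and truncated receptor RNAs, and the RNAs from the separate Bdnf start sites, were not told apart. A gene was called when its adjusted p was under 0.05 in the limma fit over all 30142 genes, and n is 3 arrays for every group. In bulk tissue, fewer cells of a type and less RNA per cell cannot be told apart.

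The captured layers carried their defining markers. The pyramidal neuron factor Neurod6 fell toward the dendrites by 2.57 in CA1 and by 3.18 in CA2, and Amigo2 and Rgs14 were higher by 2.83 and 1.17 in the cell body layer of CA2 than of CA1. Neurod6 had the largest fall of 7 measured pyramidal neuron markers. Of these, 5 were called lower and 1 higher toward the dendrites in CA1 (median -0.65), and 7 lower in CA2 (median -1.25). Of all genes, 18.9% were called lower in CA1 and 18.6% in CA2. All 17 astrocyte and all 12 measured microglia markers rose toward the dendrites in both. Single markers of other cell types rose there too in CA1 and CA2, by 1.05 and 1.57 for Gad1 (interneurons), 1.34 and 1.15 for Mbp (oligodendrocytes) and 2.70 and 2.29 for Cx3cr1 (microglia). By the labels, every CA1 array belongs to a run and every CA2 array to another, so a comparison of CA2 with CA1 is also a comparison of runs and these cannot be told apart, whereas both layers of a region share a run. Oocyte transcripts stood apart on 3 CA2 arrays, 1 from cell bodies and 2 from dendrites, which are called the oocyte-marked arrays. The summed level of 15 oocyte genes reached 11.15 to 11.27 on these 3 arrays and 9.50 to 9.88 on the other 9. Results that use CA2 are therefore also given without these arrays, which leaves 2 CA2 cell body arrays and 1 CA2 dendritic array, the lone array being assumed to vary like the other groups.

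Bdnf is transcribed from several start sites, each with its own 5′ exon, and RefSeq (GRCm38.p6) gave 7 promoter windows for it, against 1 for Ntrk2 and 1 for Ngfr. The stretch below is shown because it holds the calcium- and cAMP-response type of element through which neuronal activity is known to drive Bdnf, and because regulators that act on it are among the genes measured further on. It covers the 100 bases before a Bdnf start site at chr2:109692336-109692435, plus strand, and the capitals mark the element TCACGTCA, 38 bases before the start site at its first base.

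Bdnf: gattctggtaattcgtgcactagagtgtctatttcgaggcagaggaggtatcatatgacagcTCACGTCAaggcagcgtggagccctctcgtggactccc

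Searched on both strands in the 250 bases before each start, TCACGTCA was found in 1 of the 7 Bdnf windows and in 0.35% of 32851 windows of all genes, 115 in number. TCACGTCA was chosen as an element known to act on Bdnf, so finding it there says nothing of enrichment. The shorter TGACG, which overlaps it, was found in the same number of Bdnf windows, 1, and in 17.8% of all windows. The array gives 1 value for all Bdnf start sites together, so no level belongs to this stretch by itself.

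Across the 4 pieces, the genes fell into 3 kinds of pattern. Bdnf, Ntrk3 and Sort1 fell toward the dendrites in both regions, Ntrk2 was higher there, and Ngfr was called higher in CA1 alone. In CA1, 5 of the 5 measured genes were called, 2 higher and 3 lower, where 49.0% of all genes were called (30.1% higher and 18.9% lower). In CA2, 4 of 5 were called, 1 higher and 3 lower, where 35.2% of all genes were called (16.7% higher and 18.6% lower). The median layer difference of the 5 genes was -0.32 in CA1 and -0.65 in CA2, beside 0.12 and -0.03 over all genes. After quantile normalization the median over all genes in CA1 was 0.00, so small rises in CA1 are read against that shift. Of the genes called in CA1, 61.4% were higher in the dendritic layer, against 47.9% after quantile normalization and 35.4% after median centring.

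**Figure D1:**
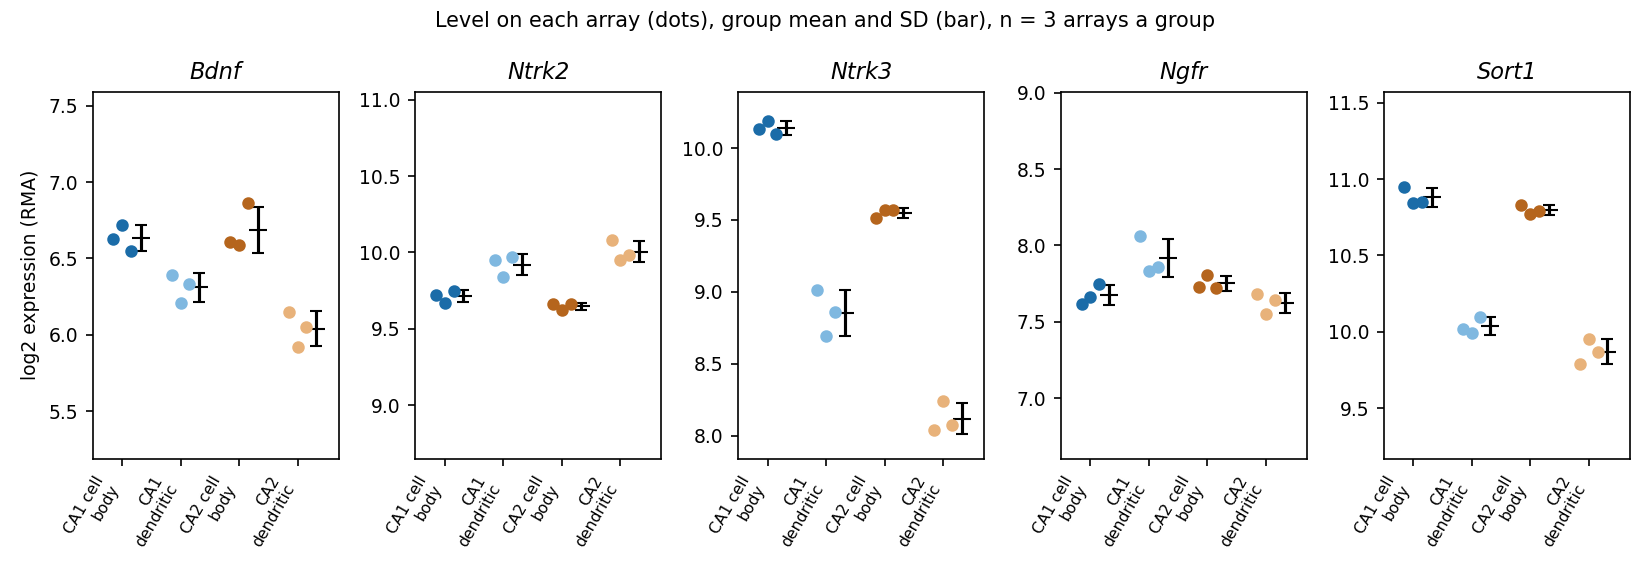
Each panel plots the log2 expression (RMA) of a gene on the vertical axis, with the panels spanning at least 2.4 log2 units on different ranges, for 3 arrays (dots) in each of the 4 pieces, with the group mean and SD as a black bar. Bdnf, Ntrk3 and Sort1 sit lower in both dendritic groups than in both cell body groups, Ntrk2 sits higher, and Ngfr is highest in the CA1 dendritic layer.

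Of the ligands, Bdnf read 6.63, 6.72 and 6.55 in CA1 cell bodies, against 6.39, 6.21 and 6.33 in CA1 dendrites. In CA2 it read 6.61, 6.59 and 6.86 in the cell body layer and 6.15, 5.92 and 6.05 in the dendritic layer. The layers did not overlap in either region, and the levels were low, the median of all features being 5.68 to 5.88 on the 12 arrays. Bdnf fell by 0.32 in CA1 (SE 0.09, adjusted p = 0.0108), a 1.25-fold difference, and by 0.65 in CA2 (SE 0.09, adjusted p = 8.92e-05), a 1.57-fold difference. Groups of 3 against 3 arrays did not overlap in 55.1% of all genes in CA1 and in 47.3% in CA2.

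The order of the Bdnf levels was CA2 cell body (6.69 ± 0.15), CA1 cell body (6.63 ± 0.09), CA1 dendritic (6.31 ± 0.09) and CA2 dendritic layer (6.04 ± 0.12), and the cell body groups overlapped. In the dendritic layer Bdnf was lower in CA2 than in CA1 by -0.27 (SE 0.09, adjusted p = 0.0379), and in the cell body layer the difference was 0.05 (95% confidence interval -0.14 to 0.25, adjusted p = 0.749). The layer difference of CA2 minus that of CA1 was -0.32 (SE 0.13), a larger fall in CA2, which did not pass (adjusted p = 0.103). The dendritic call held in 10 of 25 alternatives and was lost without the oocyte-marked arrays (-0.16, adjusted p = 0.448), after quantile normalization (-0.18, adjusted p = 0.187) and after median centring (-0.21, adjusted p = 0.131), while the CA2 layer difference was -0.57 without those arrays (adjusted p = 0.0138). In CA1 the call was lost without replicate 2 of every group, CA2 included (-0.23, adjusted p = 0.122).

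Ntf5 encodes a second TrkB ligand. It read 6.70 to 6.81 in the CA1 cell body layer and 6.81 to 7.28 in the CA1 dendritic layer, and 6.86 to 7.03 and 6.72 to 6.90 in the same layers of CA2. These ranges touched or overlapped in both regions, and it passed in none of the 5 comparisons (differences of -0.33 to 0.23, adjusted p = 0.0891 to 0.546).

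The Trk receptors took opposite directions between the layers. Ntrk3 read 10.13, 10.19 and 10.10 in the CA1 cell body layer and 9.01, 8.69 and 8.86 in the CA1 dendritic layer. In CA2 it read 9.51, 9.57 and 9.57 in the cell body layer and 8.04, 8.24 and 8.07 in the dendritic layer. Every array of a group lay apart from every array of the other groups, in the order CA1 cell body (10.14 ± 0.05), CA2 cell body (9.55 ± 0.03), CA1 dendritic (8.85 ± 0.16) and CA2 dendritic layer (8.12 ± 0.11). In the pairs of groups compared, 41.0% to 55.1% of all genes did not overlap, and the share with all groups apart was not counted.

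Ntrk3 fell from the cell body to the dendritic layer by 1.29 in CA1 (SE 0.08, adjusted p = 1.32e-07) and by 1.43 in CA2 (SE 0.08, adjusted p = 4.64e-08), or 2.44-fold and 2.70-fold. It was the only 1 of the 5 genes to differ between the regions in both layers. CA2 was 1.51-fold lower in the cell body layer (-0.59, SE 0.08, adjusted p = 2.68e-04) and 1.67-fold lower in the dendritic layer (-0.74, SE 0.08, adjusted p = 7.67e-05), and neither pair of groups overlapped, as for 43.7% and 41.0% of all genes. The layer differences of the regions differed by -0.15 (95% confidence interval -0.40 to 0.11, adjusted p = 0.393). Both regional differences also passed with the oocyte-marked arrays left out (-0.57, adjusted p = 0.004 and -0.81, adjusted p = 0.00607). The call of Ntrk3 held in each of these 4 comparisons under every alternative run.

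Ntrk2 read 9.72, 9.67 and 9.75 in the CA1 cell body layer and 9.95, 9.84 and 9.97 in the CA1 dendritic layer. In CA2 it read 9.66, 9.62 and 9.66 in the cell body layer and 10.08, 9.95 and 9.98 in the dendritic layer. The layers did not overlap in either region, and within a group the SD was at most 0.07. Ntrk2 was higher in the dendritic layer by 0.21 in CA1 (SE 0.06, adjusted p = 0.0141) and by 0.36 in CA2 (SE 0.06, adjusted p = 4.48e-04), or 1.15-fold and 1.28-fold.

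The order of the Ntrk2 levels was CA2 dendritic (10.00 ± 0.07), CA1 dendritic (9.92 ± 0.07), CA1 cell body (9.71 ± 0.04) and CA2 cell body layer (9.65 ± 0.02). Between the regions Ntrk2 differed by -0.07 in the cell body layer (95% confidence interval -0.20 to 0.07) and by 0.08 in the dendritic layer (95% confidence interval -0.05 to 0.22), and neither passed (adjusted p = 0.505 and 0.293). The CA1 rise depended on the scaling and on CA1 cell body replicate 2 (0.19 without it, adjusted p = 0.0562). It was 0.05 after median centring (adjusted p = 0.575) and 0.41 after quantile normalization (adjusted p = 1.54e-04), while the CA2 rise passed under both (0.30, adjusted p = 0.00262 and 0.46, adjusted p = 5.88e-05) and without the oocyte-marked arrays (0.44, adjusted p = 0.0105).

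Astrocyte markers moved with Ntrk2 and by more, as did markers of other cell types. Gfap, the intermediate filament of astrocytes, was higher in the dendritic layer by 3.28 in CA1 and 3.24 in CA2, and the 17 astrocyte markers had median differences of 2.14 and 1.99. The medians in CA1 and CA2 were 2.115 and 2.25 for endothelial, 2.27 and 1.80 for microglia and 1.32 and 1.59 for vessel wall (mural) markers. The summed astrocyte level was 12.36 to 12.45 in the CA1 cell body and 14.53 to 14.57 in the CA1 dendritic layer, and 12.66 to 12.68 and 14.61 to 14.68 in those of CA2. The summed level of 7 pyramidal neuron markers moved the other way, from 13.50 to 13.58 down to 12.26 to 12.37 in CA1 and from 13.08 to 13.14 down to 11.22 to 11.47 in CA2, as Ntrk3, Sort1 and Bdnf did. The part of cell makeup in these differences was not tested.

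**Figure D2:**
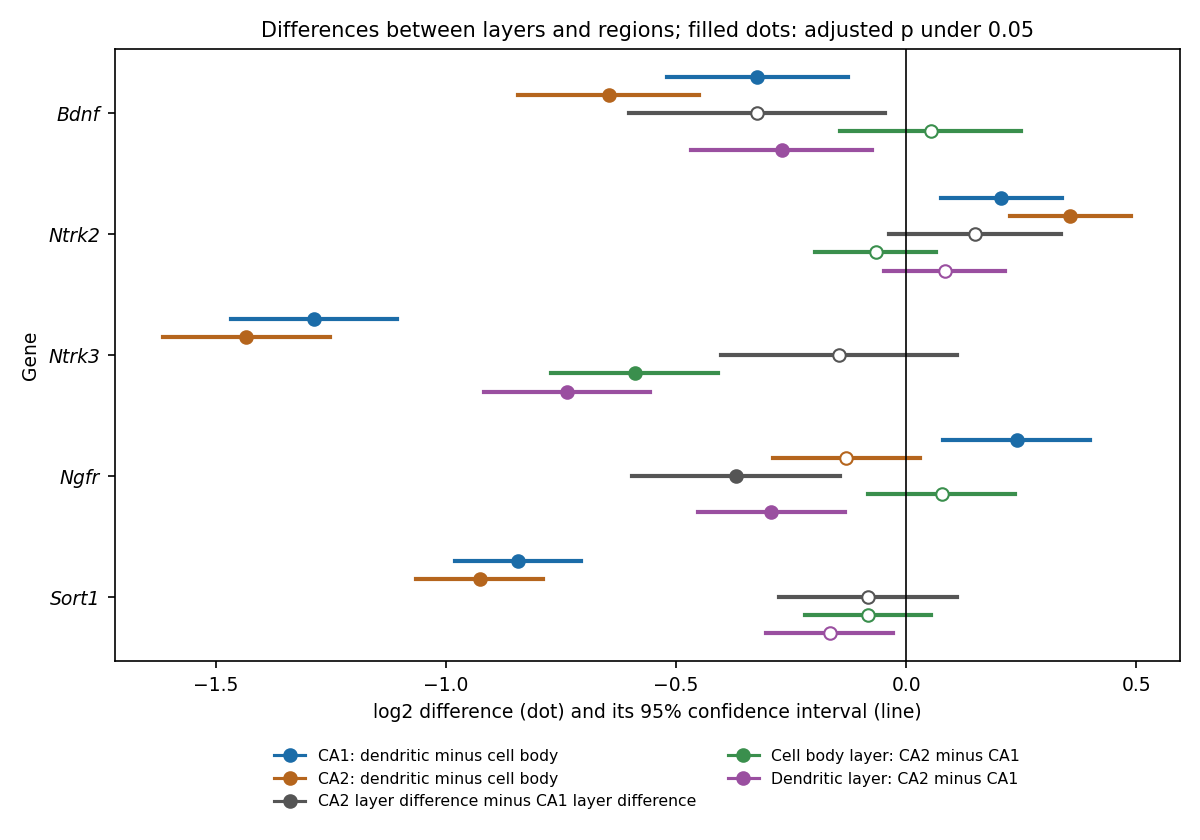
Dots give the log2 difference of each gene in the 5 comparisons, lines its 95% confidence interval from the limma fit, and filled dots an adjusted p under 0.05. Ntrk3 and Sort1 fell in the dendritic layer of both regions (-1.29 and -1.43, -0.84 and -0.93), and Ngfr was the only gene with a called difference between the regions' layer differences.

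The receptors for proneurotrophins differed from each other. Sort1 read 10.95, 10.84 and 10.85 in the CA1 cell body layer and 10.02, 9.99 and 10.10 in the CA1 dendritic layer. In CA2 it read 10.83, 10.77 and 10.79 in the cell body layer and 9.79, 9.95 and 9.87 in the dendritic layer. The cell body arrays all lay above the dendritic arrays. Sort1 fell by 0.84 in CA1 (SE 0.06, adjusted p = 4.2e-07) and by 0.93 in CA2 (SE 0.06, adjusted p = 1.77e-07), or 1.79-fold and 1.90-fold.

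Between the regions, Sort1 differed by -0.08 in the cell body layer (95% confidence interval -0.22 to 0.05, adjusted p = 0.411) and by -0.17 in the dendritic layer (95% confidence interval -0.30 to -0.03), which did not pass after adjustment (adjusted p = 0.0591). The dendritic difference passed after quantile normalization (-0.26, adjusted p = 0.0221) and without CA2 dendritic replicate 2 (-0.21, adjusted p = 0.0486). The layer falls of Sort1 passed under every alternative run.

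Ngfr read 7.62, 7.66 and 7.75 in the CA1 cell body layer and 8.06, 7.83 and 7.86 in the CA1 dendritic layer. In CA2 it read 7.73, 7.81 and 7.72 in the cell body layer and 7.68, 7.55 and 7.64 in the dendritic layer. The CA1 dendritic arrays were the highest of the 12, the first of them most of all, and the other groups lay within 7.55 to 7.81. Ngfr was higher in the dendritic layer by 0.24 in CA1 (SE 0.07, adjusted p = 0.0174), and in CA2 the difference was -0.13 (95% confidence interval -0.29 to 0.03, adjusted p = 0.213).

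The difference between these layer differences passed for Ngfr (-0.37, SE 0.10, adjusted p = 0.0344), where 14.6% of all genes were called (5.64% with a higher and 8.91% with a lower value in CA2). Higher values made up 38.8% of those calls, 49.1% after quantile normalization and 65.2% after median centring. In the dendritic layer Ngfr was lower in CA2 than in CA1 by -0.29 (SE 0.07, adjusted p = 0.0108), and in the cell body layer the difference was 0.08 (95% confidence interval -0.08 to 0.24, adjusted p = 0.53). The difference of the layer differences passed in 9 of 24 alternatives, and it and the dendritic difference were lost without the oocyte-marked arrays (-0.33, adjusted p = 0.25 and -0.24, adjusted p = 0.224), and the CA1 rise was lost without CA1 dendritic replicate 1 (0.17, adjusted p = 0.0642), CA1 cell body replicate 1 (0.21, adjusted p = 0.065) or CA1 cell body replicate 2 (0.23, adjusted p = 0.052), and after median centring (0.09, adjusted p = 0.368). The cholinergic cells of the basal forebrain are a well-known adult source of Ngfr RNA. Of 3 measured cholinergic markers, 2 were called higher in the CA1 dendritic layer, where 30.1% of all genes were called higher. These were Slc5a7 (0.28, adjusted p = 0.0445) and Slc18a3 (0.30, adjusted p = 0.0124), while Chat differed by 0.16 (adjusted p = 0.0895). Slc5a7 read 5.08 to 5.21 in CA1 cell bodies and 5.19 to 5.70 in CA1 dendrites, and Slc18a3 5.17 to 5.39 and 5.51 to 5.76. Such levels lay near or below the median of all features, 5.68 to 5.88. The summed level of the 3 markers was 7.06 to 7.15 in CA1 cell bodies, 7.19 to 7.43 in CA1 dendrites and 7.10 to 7.29 over the CA2 arrays, and their part in the Ngfr rise was not tested.

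Between the regions as a whole, 1 of the 5 genes was called in the cell body layer, where 22.8% of all genes were called (11.2% lower), and 3 in the dendritic layer, where 33.6% of all genes were called (21.3% lower). Each of these calls was lower in CA2. Of all genes called in the dendritic layer, 36.5% were higher in CA2, against 52.6% after quantile normalization and 54.7% after median centring. Without the oocyte-marked arrays, Ntrk3 was the 1 gene still called in the dendritic layer. Cell type markers differed between the regions too. In the dendritic layer, 5 of 7 pyramidal neuron markers (median -0.54) and 10 of 12 microglia markers (median -0.45) were lower in CA2, and 9 of 12 endothelial and 9 of 11 oligodendrocyte markers were higher (medians 0.50 and 0.55). In the cell body layer all 4 measured CA3 markers were higher in CA2 (median 1.81, up to 5.01), with a summed level of 11.73 to 11.82 against 8.89 to 8.96 in CA1, and 9 of 11 oligodendrocyte markers were higher (median 0.63). The part of these cell types in the regional differences of Ntrk3, Bdnf and Ngfr was not tested.

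The genes whose profiles over the 12 arrays were most like those of the neurotrophin genes were taken by Pearson correlation among up to 11711 genes whose mean lay above the median of all genes, a level that Bdnf itself did not reach. The arrays form 4 groups that share layer, region and run, so such a correlation mostly compares group means. Ntrk3 was most like the neuronal transcription factor gene Myt1l (r = 0.997), the NMDA receptor subunit gene Grin2a (0.996) and Arfgef3 (0.995). Sort1 was most like the ryanodine receptor gene Ryr2 (0.996), the actin regulator gene Wasf1 (0.995) and Herc3 (0.994). Ntrk2 was most like Smad9 (0.975), a mediator of BMP signalling, H2az2 (0.971) and Dap (0.970). Bdnf was most like Bves (0.964), the amino acid transporter gene Slc7a8 (0.956) and Smpd3 (0.955), and Ngfr was most like Ccdc51 (0.955), Nr2f6 (0.926) and Arrdc2 (0.920).

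The rest of the neurotrophin pathway was read from 7 lists with 105 measured genes of 123 named. From the cell bodies to the dendrites of CA1, 34 of the 105 rose and 41 fell, beside 49.0% of all genes called (30.1% higher and 18.9% lower). In CA2 33 rose and 43 fell, beside 35.2% (16.7% higher and 18.6% lower). These shares of all genes stand beside each list count below. Called were 24 genes as higher and 36 as lower in both regions, and 3 genes, Sorcs2, Serpini1 and Bhlhe40, in opposite directions. Of all 30142 genes, 3835 were called higher in both regions, 3818 lower in both and 411 in opposite directions.

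**Figure D3:**
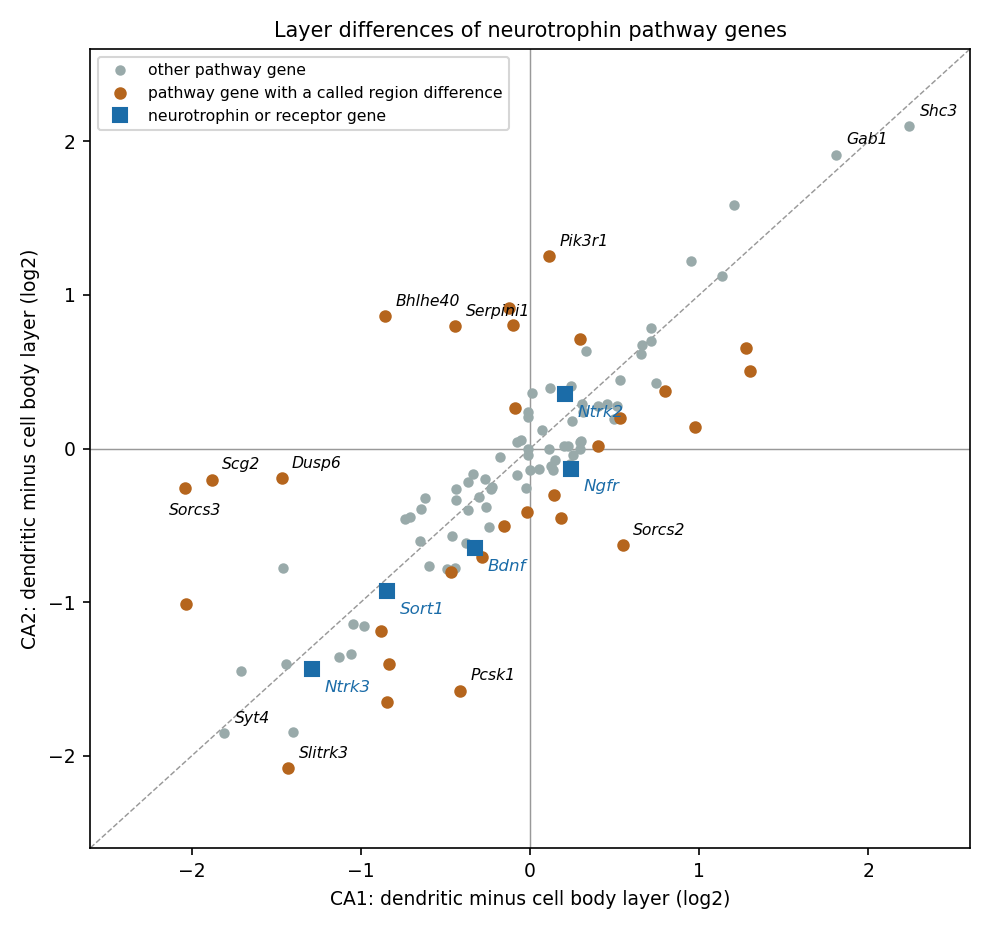
Each dot is a pathway gene (105 in all) and each blue square a neurotrophin or receptor gene, with the log2 layer difference in CA1 on the horizontal axis and that in CA2 on the vertical axis; the dashed line marks equal differences. Most genes lie near the line, Shc3 and Gab1 are high in the dendritic layer of both regions, and Sorcs3, Scg2, Bhlhe40 and Pik3r1 lie far from the line.

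Sortilin has 4 relatives, of which SorCS2 and SorCS3 also bind neurotrophins or their receptors. Sorcs3 read 10.25, 10.21 and 10.15 in the CA1 cell body layer, but 8.13, 8.04 and 8.32 in the CA1 dendritic layer. In CA2 it read 7.76, 7.99 and 8.00 in the cell body layer and 7.79, 7.57 and 7.62 in the dendritic layer. The CA1 cell body arrays were thus the only ones above 8.32. Sorcs3 fell by 2.04 in CA1 (SE 0.09, adjusted p = 7.16e-09) and by 0.26 in CA2 (SE 0.09, adjusted p = 0.0471), where the layers overlapped, and the layer differences differed by 1.78 (SE 0.13, adjusted p = 5.99e-06). In the cell body layer it was 4.88-fold lower in CA2 (-2.29, SE 0.09, adjusted p = 1.02e-08).

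Sorcs2 had another order. It read 6.85, 7.02 and 6.95 in the CA1 cell body layer and 8.02, 8.07 and 8.12 in the CA2 cell body layer, with both dendritic groups between them at 7.42 to 7.51. It rose by 0.55 from the cell body to the dendritic layer in CA1 (adjusted p = 1.17e-05) and fell by 0.63 in CA2 (adjusted p = 3.62e-06), and the regional difference in the cell body layer was 1.13 (SE 0.06, adjusted p = 1.01e-07). Sorl1, a sorting receptor also known for its handling of the amyloid precursor protein, fell by 1.06 in CA1 and by 1.34 in CA2, with cell body means of 10.50 in both regions. Sorcs1 was higher in the dendritic layer by 0.33 in CA1 and 0.64 in CA2, and the CA1 call was lost after quantile normalization (0.18, adjusted p = 0.259).

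**Figure D4:**
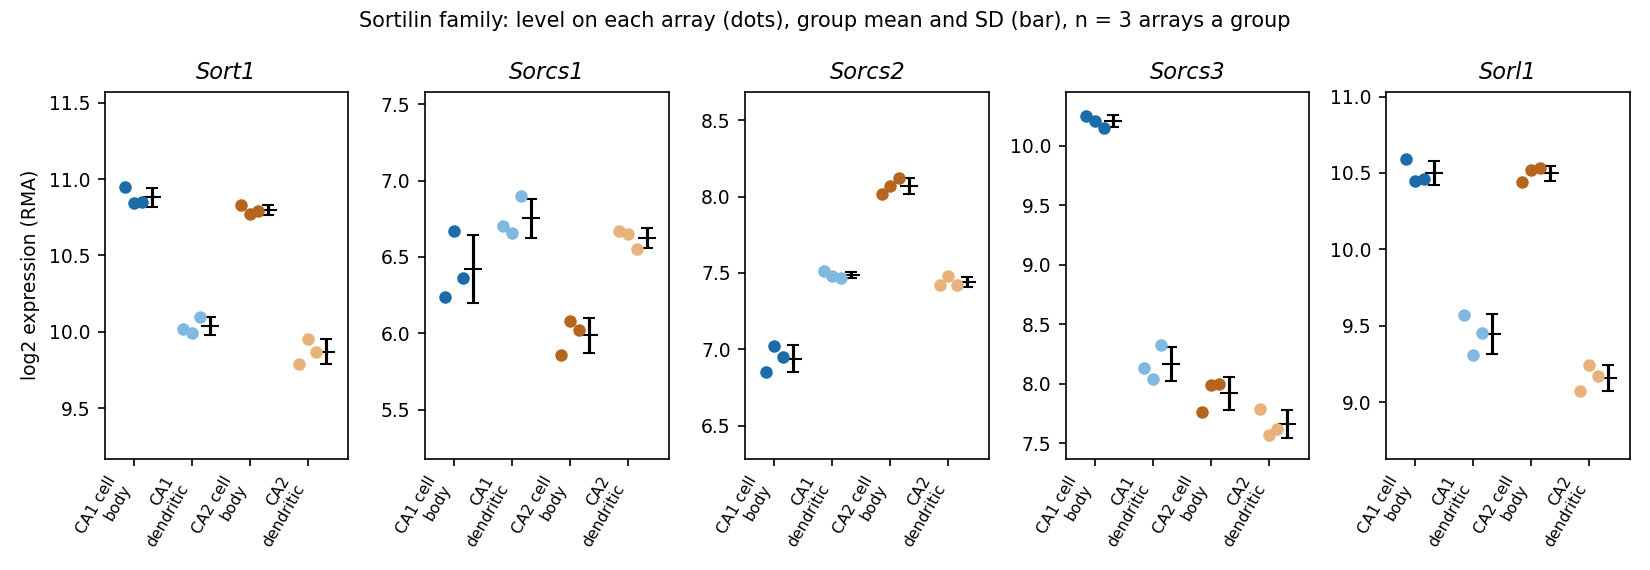
Each panel plots the log2 expression (RMA) of a sortilin family gene on each array (dots) by piece, with the group mean and SD (n = 3). Sort1 and Sorl1 are lower in both dendritic groups, Sorcs3 is high in the CA1 cell body layer alone (10.15 to 10.25), and Sorcs2 is highest in the CA2 cell body layer (8.02 to 8.12).

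Of 12 measured genes for the sortilin relatives and p75 partners, 2 rose and 8 fell toward the CA1 dendritic layer (median -0.37), and 2 rose and 9 fell toward that of CA2 (median -0.37). Lingo1, a coreceptor of p75 and the Nogo receptor, fell by 0.84 in CA1 and by 1.65 in CA2, from 9.20 ± 0.06 to 8.36 ± 0.21 and from 9.01 ± 0.01 to 7.36 ± 0.25. Its dendritic level was 2.00-fold lower in CA2 than in CA1 (adjusted p = 1.29e-04). Traf6, which signals downstream of p75, was called higher in CA2 alone (0.20, adjusted p = 0.0495), and its call was lost after quantile normalization (0.17, adjusted p = 0.103) and without the oocyte-marked arrays (0.33, adjusted p = 0.0788). Kidins220, a scaffold phosphorylated by Trk receptors, was higher in CA2 than in CA1 by 0.31 in the cell body and 0.38 in the dendritic layer, and Bex3, whose product binds p75, by 0.38 in the dendritic layer (0.33, adjusted p = 0.145 without the oocyte-marked arrays).

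Of 19 genes for the cutting and release of proneurotrophins, 7 rose and 6 fell toward the CA1 dendritic layer (median -0.01), and 5 rose and 4 fell toward that of CA2 (median 0.00). Scg2 (secretogranin II, a dense-core vesicle protein) read 9.98, 9.93 and 9.95 in the CA1 cell body layer and 7.72 to 8.54 on the other 9 arrays. It fell by 1.88 in CA1 (adjusted p = 3.87e-07), and the CA2 difference was -0.20 (adjusted p = 0.316). Syt4, a synaptotagmin of dense-core vesicles known to act on BDNF release, fell by 1.81 in CA1 and by 1.85 in CA2. Pcsk1, a proprotein convertase of the regulated pathway, read 7.85 to 7.88 in CA2 cell bodies, against 6.01 to 6.71 elsewhere. It fell by 1.58 in CA2 (adjusted p = 1.02e-06) and by 0.41 in CA1 (adjusted p = 0.0206).

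In the same list Pcsk6, a convertase of the constitutive pathway, was higher in the CA1 dendritic layer by 0.65, and Mmp2, a matrix metalloproteinase, by 0.53. Cadps2, a priming factor of vesicle release linked to BDNF secretion, was lower in CA2 than in CA1 cell bodies by -1.11 (adjusted p = 5.72e-06), and was higher in the dendritic layer of CA2 by 0.92. Cadps, its paralog, was higher in CA2 cell bodies by 0.64. Serpini1 (neuroserpin, the inhibitor of the tissue plasminogen activator that starts proBDNF cleavage outside the cell) was higher in the dendritic layer of CA2 by 0.80 and fell in that of CA1 by 0.44. In the dendritic layers Serpini1 was higher in CA2 than in CA1 by 0.61 and Plat, the activator itself, by 0.43 (adjusted p = 0.041), whereas Htt, huntingtin, which takes part in BDNF vesicle transport, was lower by -0.37, as was Mmp7 by -0.33. Without the oocyte-marked arrays these last 3 did not pass (Plat 0.06, adjusted p = 0.728, Htt -0.34, adjusted p = 0.0991, and Mmp7 -0.35, adjusted p = 0.105).

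Of 30 genes for adaptors and kinases below the Trk receptors, 14 rose and 8 fell toward the CA1 dendritic layer (median 0.12), and 14 rose and 10 fell toward that of CA2 (median 0.03). Shc3, a neuronal Shc adaptor, read 8.94, 8.85 and 8.89 in the CA1 cell body layer and 11.10, 11.19 and 11.12 in the CA1 dendritic layer, and 8.27 to 8.65 and 10.48 to 10.61 in those of CA2. It rose by 2.24 in CA1 (adjusted p = 1.99e-09) and by 2.10 in CA2 (adjusted p = 2.94e-09), or 4.73-fold and 4.29-fold. Gab1, a docking protein that recruits PI3-kinase, rose by 1.81 and 1.91. Both rises exceeded in size that of Ntrk2 (0.21 and 0.36), a difference that was not tested. They lay in the layer where astrocyte markers were higher by medians of 2.14 and 1.99, as were markers of other cell types.

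Kinases of the ERK branch differed among themselves. Map2k1, the gene of MEK, fell by 1.05 in CA1 and by 1.14 in CA2, and Braf fell by 0.65 in CA1 (adjusted p = 4.04e-06). The CA2 means of Braf were 9.91 in the cell body and 9.31 in the dendritic layer. Map2k5 fell by 0.30 in CA1 (adjusted p = 0.0211), whereas Map2k2 and Mapk7 differed there by -0.08 and 0.05 and did not pass (adjusted p = 0.302 and 0.578). Rps6ka3 was higher in the CA1 dendritic layer by 0.24 (adjusted p = 0.04), and Rps6ka5 was higher in that of CA2 by 0.39 (adjusted p = 0.00483). Grb2, the adaptor that links Trk receptors to Ras activation, fell by 0.28 in CA1 (adjusted p = 0.0193) and by 0.70 in CA2. Pik3r1, the regulatory subunit of PI3-kinase, rose in the dendritic layer of CA2 by 1.25 while the CA1 difference was 0.11 (adjusted p = 0.181), and the regional difference in layers was 1.14 (SE 0.10, adjusted p = 1.77e-05). Its level in the cell body layer was lower in CA2 by -0.78. Rps6ka3 and Rps6ka5, kinases that act on CREB and chromatin, were higher in CA2 cell bodies by 0.77 and 0.46, and Rps6ka5 and Sos1 were higher in the CA2 dendritic layer by 0.73 and 0.62, where Rapgef1 and Shc3 were lower by -0.80 and -0.58.

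Of 18 genes that act on Trk receptors at the surface or in trafficking, 3 rose and 9 fell toward the CA1 dendritic layer (median -0.30), and 4 rose and 11 fell toward that of CA2 (median -0.48). The Slitrk genes encode synaptic adhesion proteins, of which SLITRK5 is known as a TrkB coreceptor. Of the 6 Slitrk genes, counted after their values were seen, 5 fell toward the dendrites in CA1 and in CA2, where 18.9% and 18.6% of all genes were called lower. Slitrk6 was at -2.03 and Slitrk1 at -1.71 in CA1, and Slitrk3 at -2.08 and Slitrk5 at -1.84 in CA2. Slitrk6 read 4.82 to 5.42 in the CA1 dendritic layer and 5.17 to 6.07 in that of CA2, ranges that overlapped at a low level. Adcyap1r1, the PACAP receptor that can transactivate Trk receptors, was higher in the dendritic layer by 1.14 in CA1 and 1.13 in CA2, and Ehd4, an endocytic protein of Trk-bearing vesicles, by 0.71 and 0.70. Between the regions, Islr2 was higher in CA2 cell bodies by 0.71 and Slitrk3 by 0.35. In the dendritic layer Slitrk6 (0.65) and Fyn (0.37), a Src-family kinase, were higher in CA2, and Ptprs (-0.50), a receptor phosphatase, and Slitrk5 (-0.39) were lower, of which Fyn (0.29, adjusted p = 0.17) and Slitrk5 (-0.36, adjusted p = 0.173) were not called without the oocyte-marked arrays.

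Of 15 transcription regulators of Bdnf, 7 rose and 6 fell toward the CA1 dendritic layer (median 0.14), and 7 rose and 5 fell toward that of CA2 (median 0.14). Rest, a repressor of neuronal genes, rose toward the dendrites by 1.20 in CA1 and 1.58 in CA2, and Crtc1, a CREB coactivator, by 1.28 and 0.66. Arnt2, the partner of NPAS4, rose by 1.22 in CA2, and its CA1 mean went from 8.83 up to 9.78. Npas4, an activity-induced factor, fell by 1.46 in CA1 (SE 0.31, adjusted p = 0.00193). Its CA2 mean went from 7.25 down to 6.48, a difference that was not called. Mef2a and Carf, factors that bind Bdnf promoters, fell by 0.81 and by 0.46 in CA2. In CA1 their means went from 9.67 down to 9.20 and from 7.92 down to 7.18. Mef2a was also higher in CA2 than in CA1 cell bodies (0.44).

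Bhlhe40, a repressor known to act on Bdnf, read 9.02, 9.16 and 9.07 in the CA1 cell body layer and 7.22, 7.40 and 7.36 in that of CA2, a difference of -1.76 (SE 0.08, adjusted p = 1.77e-08). Both dendritic groups lay between these at 8.10 to 8.36. It therefore fell by 0.86 in the dendritic layer of CA1 (adjusted p = 1.97e-06) and rose by 0.86 in that of CA2 (adjusted p = 1.81e-06). Npas4 was lower in CA2 than in CA1 cell bodies by -1.27 (adjusted p = 0.01), but not without the oocyte-marked arrays (-1.11, adjusted p = 0.0733). In the dendritic layer Srf (-1.17) and Arnt2 (-0.84) were lower in CA2, and Rest (0.64) and Creb1 (0.21) were higher, the last not without the oocyte-marked arrays (0.26, adjusted p = 0.117). For Bdnf itself the cell body difference was 0.05.

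Of 10 genes that BDNF signalling is known to induce, 1 rose and 4 fell toward the dendrites in each region (medians -0.40 in CA1 and -0.24 in CA2). Egr1 fell by 1.13 in CA1 and by 1.36 in CA2, and Nptx2, a secreted pentraxin, by 0.83 (adjusted p = 2.7e-06) and 1.40 (adjusted p = 3.02e-08). Dusp6, a phosphatase that limits ERK, fell by 1.47 in CA1, and its CA2 difference was -0.19 (adjusted p = 0.491). The genes called higher were Spry4 in CA1 (0.50, adjusted p = 0.0115; 0.34, adjusted p = 0.0791 after median centring) and Spry2 in CA2 (0.81), both feedback inhibitors of receptor tyrosine kinases. In CA2 cell bodies Dusp6 (-1.48) and Arc (-1.14), the cytoskeletal gene whose RNA travels into dendrites, were lower than in CA1 and Nptx2 was higher (0.40). In the dendritic layer Arc (-1.39) and Homer1 (-0.82) were lower in CA2 and Spry2 was higher (0.40), the last not without the oocyte-marked arrays (0.38, adjusted p = 0.0539).

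Between the regions, 25 of the 105 pathway genes were higher and 19 lower in CA2 cell bodies, beside 22.8% of all genes called, and 20 were higher and 29 lower in the CA2 dendritic layer, beside 33.6%. The layer difference itself differed between the regions for 29 genes, beside 14.6% of all genes. That of CA2 minus that of CA1 was positive for 11 and negative for 18. Without the oocyte-marked arrays these counts were 30 in the cell body layer, 24 in the dendritic layer and 18 for the layer differences, where 4974, 3083 and 1303 of all genes were called.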

How the data were processed

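The deposited values are log2 expression values that the authors made with RMA, per the submitters' processing notes. Its software, and whether both runs were normalized together, is not given in the sources used here. The table held 72688 features. The platform annotation named 30604 with 1 gene symbol and 2146 with several. Symbols were updated through Entrez identifiers to RefSeq for 22818 features, which changed 827, and the brightest feature of a gene was kept, which left 30142 genes. Each was tested in R 4.3.3 with limma 3.58.1 (lmFit and eBayes) in 1 fit of 12 arrays with 4 group means and no block, two-sided, with Benjamini-Hochberg adjustment over all genes and no filter on dim genes. Precision here depends on how many arrays there are, not on a read depth.

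The genes and lists were chosen with earlier results of these data known. Named were the 6 genes, Ntf5, for each pathway list and comparison up to 2 called genes with the largest rise and up to 2 with the largest fall, the 3 most similar profiles (predicted genes, small RNAs and chemoreceptor genes left out) and 7 marker genes. Genes named there may be given in other comparisons. Map2k2, Map2k5, Mapk7 and the cholinergic markers were named outside this rule. Summed marker levels are log2 of summed unlogged values.

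Replicate numbers 1 to 3 recur in each group, but deviations from the group means correlated above 0.1 in 1 of 18 same-numbered pairs (-0.35 to 0.13), so the number was not used as a block. The fit of the CA1 layers over 30142 genes was also run on simulated arrays with the spread of these data. It recovered 3 of 50 genes changed by 0.25, 26 of 50 changed by 0.5 and 48 of 50 changed by 1. Few genes were changed in the simulation, whereas 49.0% were called in the CA1 layers of the data. These rates therefore need not hold for the data.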

Additional observations from a re-analysis of the deposited data

Results flagged for a closer look

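The layer differences of CA1 and CA2 differed by the interaction test for 1 of the 5 neurotrophin genes and for the 19 pathway genes named in that comparison. Ngfr differed by -0.37 (adjusted p = 0.0344), from 0.24 in CA1 to -0.13 in CA2, and by -0.33 without 3 CA2 arrays on which oocyte transcripts stood apart (adjusted p = 0.25).

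The layer difference of CA2 minus that of CA1 was positive for Sorcs3 (1.78), Scg2 (1.68), Serpini1 (1.24), Pik3r1 (1.14), Sos2 (0.42), Slitrk6 (1.02), Bhlhe40 (1.72), Dusp6 (1.28) and Spry2 (0.91). It was negative for Sorcs2 (-1.18), Lingo1 (-0.81), Pcsk1 (-1.16), Rapgef1 (-0.80), Akt1 (-0.42), Slitrk3 (-0.65), Islr2 (-0.63), Srf (-0.83), Crtc1 (-0.62) and Nptx2 (-0.57). A positive value can mean a smaller fall in CA2, as for Sorcs3 (-2.04 in CA1 and -0.26 in CA2). A negative value can mean a larger fall, as for Lingo1 (-0.84 and -1.65). Without those arrays, 16 of these 19 passed, and Pcsk1 (-1.05, adjusted p = 0.0627), Sos2 (0.40, adjusted p = 0.117) and Dusp6 (adjusted p = 0.123) did not. Akt1 did not pass after median centring (-0.32, adjusted p = 0.106).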

How the results depend on the processing

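Of 620 recomputed differences of single neurotrophin genes, 569 kept their direction or, where not called, their side of the threshold, 48 lost a call, 3 gained one, and 0 called values changed sign. In the layers of CA1, 5 genes were called, and 3 after median centring or with the groups of the comparison alone; leaving out arrays gave 2 to 5. In the layers of CA2, 4 were called under every alternative. For the difference of the layer differences the 1 call (Ngfr) became 0 with the replicate block, median centring, all features or without the oocyte-marked arrays, and leaving out arrays gave 0 to 1. In the dendritic layers 3 became 1 with the groups of the comparison alone or without the oocyte-marked arrays; leaving out arrays gave 1 to 3. In the cell body layers the 1 call (Ntrk3) held throughout. Pathway calls were 75 in the CA1 layers (59 to 78 over the alternatives). In the CA2 layers 76 became 47 without the oocyte-marked arrays; for the layer differences 29 became 18, and leaving out arrays gave 13 to 37; in the cell body layers 44 became 24 to 48 on leaving out arrays; in the dendritic layers 49 became 24 without the oocyte-marked arrays, 30 with the groups of the comparison alone, and 29 to 52 on leaving out arrays. Over all genes, 10138 calls in the dendritic layers became 4771 with the groups of the comparison alone, 6267 with array weights and 3083 without the oocyte-marked arrays, which also took 10625 calls in the CA2 layers to 7068 and 4387 for the layer differences to 1303. Without replicate 2 of every group, 1029 were called for the layer differences, 4007 instead of 6864 in the cell body layers and 4393 in the dendritic layers. Bdnf in the dendritic layers was called in 10 of 25 alternatives, Ngfr in the CA1 layers in 18, Ntrk2 in the CA1 layers in 19. In the last 2, the calls were lost on the 2 groups alone (adjusted p = 0.0527 for Ntrk2 and 0.0575 for Ngfr), the CA1 dendritic layer having the widest spread (median SD 0.129 against 0.0721 to 0.0929). The replicate block also removed the Bdnf call in the dendritic layers (adjusted p = 0.0501) and left the other 12 calls of single genes in place; it called 14122 genes in the CA1 layers instead of 14757, and 4 of 12 arrays were most like an array of their own number. Median centring and quantile normalization moved the median of all genes in the CA1 layers from 0.12 to -0.03 and 0.00. The cause of these changes was not tested. RMA can compress values on a low signal, and whether it did so for Bdnf was not tested.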

Other observations

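Some activity-induced genes varied widely between arrays of the CA1 cell body layer and others did not. Arc read 8.94, 9.35 and 10.01 there (SD 0.54), Npas4 8.07, 8.56 and 8.95 (SD 0.44) and Egr1 9.49, 9.41 and 10.08 (SD 0.37), whereas Bdnf, whose transcription is also known to follow activity, read 6.63, 6.72 and 6.55 (SD 0.09). In the CA2 cell body layer the SD was 0.13 for Arc, 0.32 for Npas4, 0.13 for Egr1 and 0.15 for Bdnf. In the CA1 dendritic layer it was 0.15 for Arc, 0.70 for Npas4, 0.46 for Egr1 and 0.09 for Bdnf. Replicate 3 was the highest in both CA1 layers for Arc, Npas4 and Egr1. Bdnf lay at a low level, where the compression of RMA limits the values. Other activity-induced genes had a smaller spread than Arc in the CA1 cell body layer, with an SD of 0.07 for Homer1, 0.07 for Bhlhe40, 0.08 for Srf and 0.14 for Nptx2. These genes were picked out after their values were seen, and the difference in spread was not tested.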
